A study of Rattus norvegicus with 9 samples.

Results

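The genes of the perineuronal net and of its main proteoglycans, the lecticans, were examined in rat brain 14 days after stroke. The 10 genes are Acan, Bcan, Ncan, Vcan, Hapln1, Hapln2, Hapln4, Tnr, Ptprz1, and Adamts4, out of 26276 gene names on the array. They were chosen by name, with earlier results of these data known. They are read by 16 of the 30367 probes, and each gene is represented by its brightest probe, with its other probes given beside it. Of these 16 probes, 15 were bright enough to be tested, and all 15 were well above background on all 9 arrays.

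The perineuronal net is a lattice of extracellular matrix that wraps the cell body and proximal dendrites of certain neurons, above all the fast-spiking interneurons that make parvalbumin. Its backbone is hyaluronan, to which the lecticans, proteoglycans that carry chondroitin sulfate chains, are fastened by link proteins and crosslinked by tenascin-R. Lecticans are also part of the loose matrix of the brain and of the nodes of Ranvier, and they are well known from the scar that astrocytes and other cells form around an injury, where chondroitin sulfate hinders the growth of axons.

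The 9 arrays came from the infarcted hemispheres of male Sprague Dawley rats at day 14, with 3 rats in each of 3 groups. The I/R rats, called the model in the labels, had undergone ischemia by occlusion of the middle cerebral artery for 2 h with a filament, followed by reperfusion. The DHI rats (Danhong, DH in the labels) had the same occlusion and then received Danhong injection, a Chinese medicine made from Salvia and safflower, into the tail vein once a day until day 14. In the Sham rats the external carotid artery was isolated with no filament inserted, and these rats received the solvent. What the I/R rats were injected with is not given in the sources used here, nor is the age of any rat. A filament occlusion leaves part of the hemisphere intact, so that each array reads a mixture of injured and spared tissue, and in such bulk RNA fewer cells of a type and less RNA per cell cannot be told apart. All 8 neuron, 7 astrocyte, and 8 oligodendrocyte marker genes were bright enough to be tested.

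A value is the log2 signal of a probe minus the log2 of the 75th percentile of its array, so that 0 stands for that percentile. That percentile ranged from 1816.3 to 3464.38 intensity units, and the share of probes well above background was 75.2% to 78.9% per array. The Sham and I/R arrays shared slide 1 and the DHI arrays were on slide 2, with a scan of its own, and therefore the slide and the DHI treatment cannot be told apart. The array DHI 1 stood apart from DHI 2 and DHI 3, as the values below show, and results that rest on it are also given without it. It was singled out after the values were seen, and I/R 3 also stood apart from I/R 1 and I/R 2 in several genes. The precision of all values is limited by the small number of arrays, 3 in a group.

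The probe sequences below belong to the 3 genes that passed the adjusted test in I/R versus Sham, and to the 2 probes of Bcan, whose changes had opposite signs. They are the deposited probes, which have the sense of the messenger RNA, written 5′ to 3′ in lower case, with the rn4 coordinates of the files. The Acan probe lies on the plus strand of chromosome 1 (chr1:134846027-134846595). Its 60 bases are spread over 569 bases of the genome, so that the match is split.
Acan: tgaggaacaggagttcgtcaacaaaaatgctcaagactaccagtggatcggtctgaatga
The Vcan stretch is its second probe, on the minus strand of chromosome 2 (chr2:19714573-19714632). The brightest Vcan probe lies at chr2:19712767-19712826.
Vcan: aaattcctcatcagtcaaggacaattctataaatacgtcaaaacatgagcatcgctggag
The Hapln4 stretch is its brightest probe, on the minus strand of chromosome 16 (chr16:19820305-19820364).
Hapln4: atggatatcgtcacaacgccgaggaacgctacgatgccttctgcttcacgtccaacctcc
The probes of Bcan were designed on 2 different transcripts of the gene, both on the minus strand of chromosome 2, variant 1 at chr2:180067865-180067924 and variant 2 at chr2:180072872-180072931. The 30 bases shown of each hold AATAAA, the polyadenylation signal found near the 3′ end of most messenger RNAs, in capitals.
Bcan variant 1: aaaccaggtggaAATAAAgttgtttgaacc
Bcan variant 2: acaagccttggaAATAAAtctgtattaaac
AATAAA, searched on the printed strand only, was in 3 of the 16 probes of the 10 genes (those of Bcan and that of Hapln2) and in 8.39% of all 30367 probes.

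In I/R versus Sham, Vcan rose and Acan and Hapln4 fell. The aggregating proteoglycan that defines perineuronal nets, Acan, was 2.25-fold lower, the link protein Hapln4 was 2.21-fold lower, and versican was 2.55-fold higher. These 3 of 10 genes (30%) passed a Benjamini-Hochberg adjusted p under 0.05 in limma, against 32.4% of all 23747 probes tested (16.7% higher and 15.8% lower), which is near the same share. At the thresholds of the study, an unadjusted p under 0.05 and a fold change (FC) over 1.5, Ptprz1 was added, which made 4 of 10 genes against 43.1% of all probes. The methods' t-test at these thresholds called 6 of 10 genes, against 39.8% of all probes. For 8 of the 10 genes (80%) all Sham arrays lay on one side of all I/R arrays, against 62.5% of all probes. The median log2 fold change was -0.27 over the 10 genes and -0.10 over all probes.

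**Figure D1:**
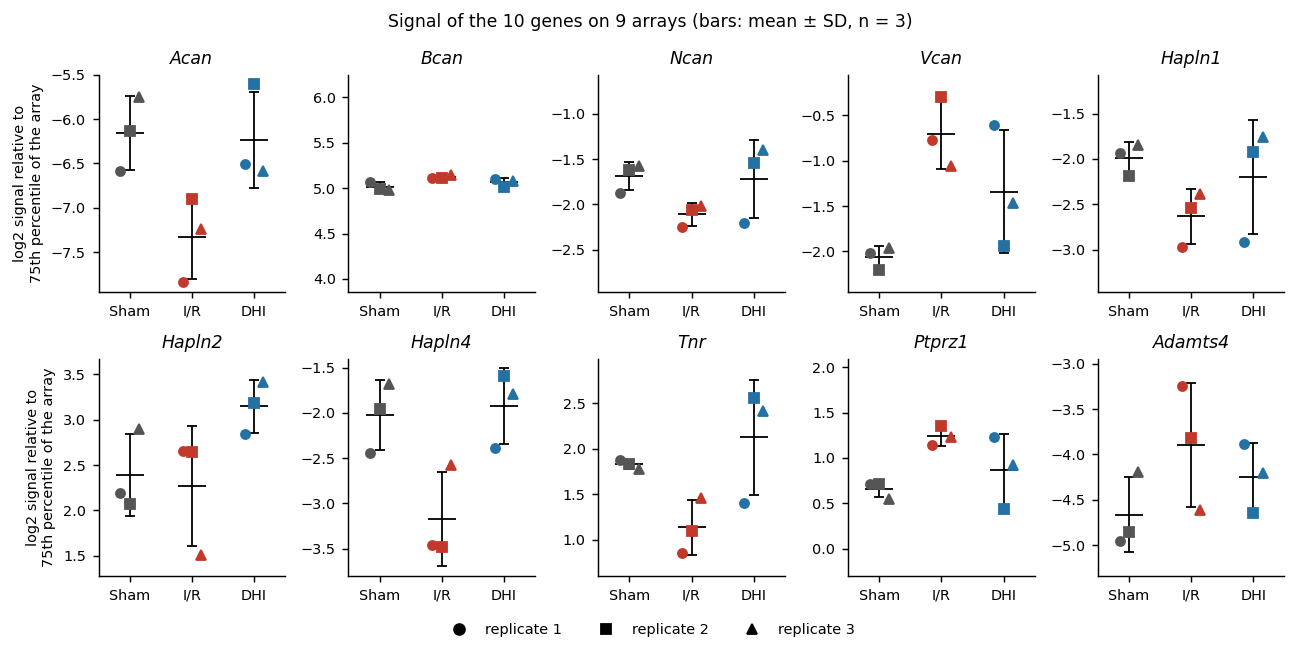
Log2 signal of the brightest probe of each of the 10 genes minus that of the array's 75th percentile (y axis) by group (Sham, I/R, DHI), with a point per array (the shape gives the replicate number) and bars for the mean ± SD of 3 arrays. The I/R points of Acan and Hapln4 lie below all Sham points and those of Vcan above, and the y axes differ between panels.

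The lecticans went different ways. Acan read -6.58, -6.13, and -5.75 in Sham 1 to 3 and -7.84, -6.90, and -7.24 in I/R 1 to 3. All 3 I/R arrays were thus below all 3 Sham arrays, with means of -7.33 ± 0.47 and -6.15 ± 0.42 (SD, n = 3 each). The log2 fold change was -1.17 (SE 0.36, adjusted p = 0.0437, limma). The probe was dim, with a mean of 37.2 intensity units in Sham, and well above background on every array.

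Versican, the lectican of development and of the injured brain rather than of mature nets, read -2.02, -2.20, and -1.96 in Sham and -0.77, -0.30, and -1.06 in I/R. Every I/R array was above every Sham array. The log2 fold change was 1.35 (SE 0.34, adjusted p = 0.0396, limma). The second Vcan probe, whose sequence is printed above, read -3.32, -3.57, and -3.21 in Sham and -1.79, -1.66, and -2.44 in I/R. It rose by nearly the same amount, with a log2 fold change of 1.40 (adjusted p = 0.0396, limma).

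Neurocan, a lectican of the loose brain matrix, was read by 1 probe (chr16:19810549-19810608). Its signal was -1.87, -1.62, and -1.58 in Sham and -2.25, -2.06, and -2.02 in I/R. The groups did not overlap, yet the log2 fold change of -0.42 (SE 0.23, adjusted p = 0.162, limma) did not pass the test.

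Brevican, the lectican most abundant in adult brain, was nearly level in its variant 1. The variant 1 probe was very bright, with a mean of 85704.6 intensity units in Sham. How far so bright a signal limits a measured change was not tested. That probe read 5.07, 4.99, and 4.98 in Sham and 5.11, 5.11, and 5.14 in I/R, and its log2 fold change was 0.10 with a 95% interval from -0.18 to 0.38 (adjusted p = 0.514, limma). The variant 2 probe read 0.37, 0.78, and 0.71 in Sham and 0.02, 0.06, and -0.07 in I/R. All its I/R values were below its Sham values, and its log2 fold change of -0.62 (SE 0.23, adjusted p = 0.0640, limma) passed the thresholds of the study but not the adjusted p. The difference between both probes on the same array was 4.21 to 4.70 in Sham and 5.05 to 5.21 in I/R. It was thus larger on every I/R array, by 0.72 on average, and an exact two-sided permutation test gave p = 0.1, the smallest that 3 arrays against 3 allow. Brevican is known in a secreted form and in a form anchored to the membrane, and the files do not say which of these each probe reads.

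The link proteins, which clamp the lecticans to hyaluronan, also differed among themselves. Hapln4, the link protein of brevican at inhibitory synapses and nodes, read -2.44, -1.96, and -1.68 in Sham and -3.46, -3.48, and -2.57 in I/R. Its I/R arrays were all lower, with I/R 3 nearest to Sham, and the log2 fold change was -1.15 (SE 0.34, adjusted p = 0.0417, limma). The other Hapln4 probe (chr16:19816354-19816413) read -5.10, -4.02, and -4.05 in Sham and -7.09, -7.00, and -4.84 in I/R. I/R 1 and I/R 2 were far below Sham there while I/R 3 overlapped it, and the log2 fold change of -1.93 (SE 0.64, adjusted p = 0.0507, limma) did not pass.

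Hapln1, the link protein common to nets and cartilage, read -1.93, -2.19, and -1.85 in Sham and -2.97, -2.54, and -2.39 in I/R with its brightest probe (chr2:19637923-19637982). The groups did not overlap, and the log2 fold change was -0.64 (SE 0.32, adjusted p = 0.134, limma). Its second probe gave -0.55 (adjusted p = 0.195, limma), and another probe, designed on an Ensembl transcript, did not stand well above background on any array. Hapln2, the link protein of nodes of Ranvier in myelinated fibers, read 2.19, 2.07, and 2.90 in Sham and 2.66, 2.64, and 1.51 in I/R (chr2:180104684-180104743). I/R 1 and I/R 2 lay within the Sham range and I/R 3 below it. Its log2 fold change was -0.12 (SE 0.37, adjusted p = 0.807, limma).

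Tenascin-R, made by oligodendrocytes and some neurons, joins lecticans to each other. The brightest Tnr probe (chr13:75347093-75347152) read 1.88, 1.83, and 1.78 in Sham and 0.85, 1.09, and 1.46 in I/R, so that the groups did not overlap. The log2 fold change was -0.70 (SE 0.31, adjusted p = 0.106, limma), and the other probe gave -0.78 (adjusted p = 0.128, limma).

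Ptprz1, a receptor phosphatase of astrocytes and oligodendrocyte precursors whose shed form is the proteoglycan phosphacan, binds tenascin-R and carries chondroitin sulfate itself. Its probe (chr4:49467838-49467897) read 0.71, 0.71, and 0.55 in Sham and 1.14, 1.35, and 1.23 in I/R. The I/R arrays were all higher, and the log2 fold change of 0.59 (SE 0.21, adjusted p = 0.0594, limma) passed the thresholds of the study only. Adamts4, an aggrecanase that cuts lecticans, read -4.95, -4.85, and -4.19 in Sham and -3.25, -3.82, and -4.61 in I/R (chr13:87150072-87150596). I/R 3 lay within the Sham range, and the log2 fold change was 0.77 (SE 0.38, adjusted p = 0.135, limma).

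**Figure D2:**
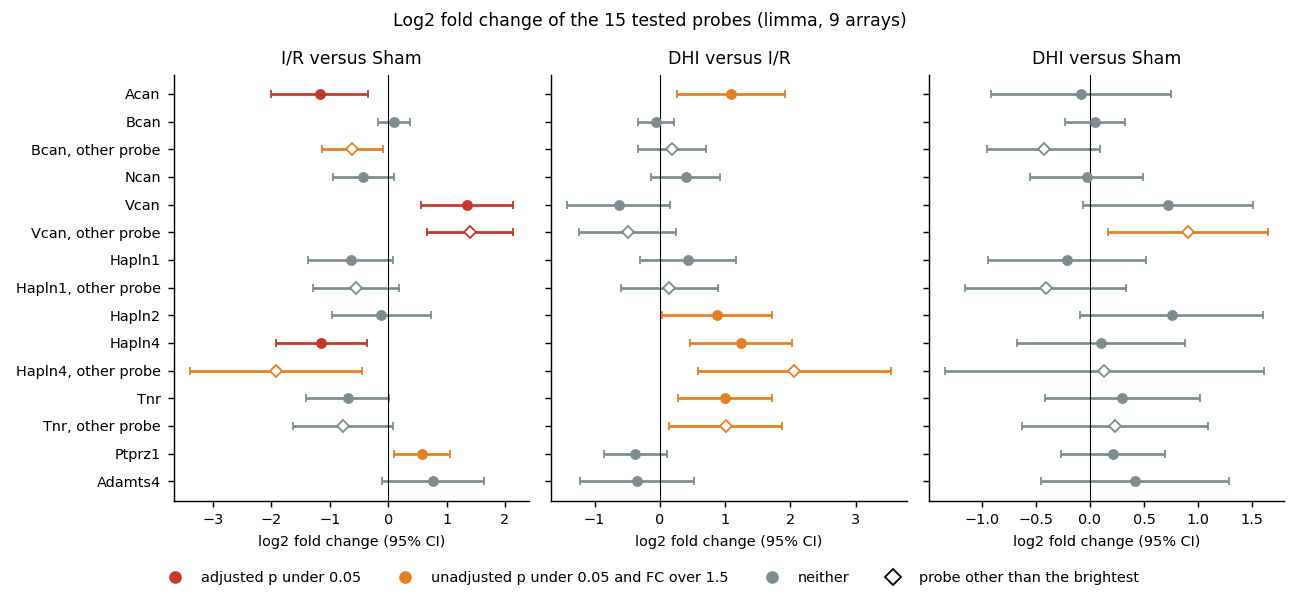
Log2 fold change (x axis) with its 95% interval for the 15 tested probes of the 10 genes in each of the 3 comparisons between groups, from limma over 9 arrays; circles are the brightest probes, open diamonds the other probes, and the color gives the threshold passed. In I/R versus Sham the probes of Acan, Vcan, and Hapln4 passed the adjusted p (the brightest probe only for Hapln4), and no probe passed it in the other comparisons.

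The 3 adjusted calls lay close to the threshold. All 3 were lost without any one of Sham 1 to 3, without I/R 1 or I/R 2, and without DHI 3, with adjusted p between 0.0577 and 0.140, and that of Acan also without I/R 3 (adjusted p = 0.0541, limma). With 1 of the 9 arrays left out, their log2 fold changes ranged from -1.39 to -0.92 in Acan, from -1.45 to -0.97 in Hapln4, and from 1.15 to 1.53 in Vcan. The value of Acan, whose probe was dim, also depended on the background correction. With normexp (offset 50) its log2 fold change was -0.47 (adjusted p = 0.201, limma), which passed neither threshold, while Vcan and Hapln4 still passed the adjusted p. By the test of the methods, Vcan and Ptprz1 passed the adjusted p, and Acan and Hapln4 did not. In a fit of the Sham and I/R arrays alone, which lie on one slide, 6 genes passed the adjusted p, namely Acan, Hapln1, Hapln4, and Tnr lower and Vcan and Ptprz1 higher, against 46.4% of all probes. Without DHI 1, 7 genes passed it, these 6 and Ncan, against 51.1% of all probes. Without I/R 3, the genes past it were Vcan, Hapln4, and Adamts4 (1.13, adjusted p = 0.0325, limma), against 45.4% of all probes.

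The pairs of probes differed in how well they moved together. In Vcan, Tnr, Hapln4, and Hapln1 both probes had the same sign in I/R versus Sham. In these 4 genes the change in the difference between the probes was -0.05, 0.08, 0.78, and -0.09 on the log2 scale, with exact two-sided permutation p of 0.9, 0.6, 0.3, and 0.7. Bcan was the gene whose 2 probes had opposite signs, with r = -0.90 between them over the 9 arrays.

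**Figure D3:**
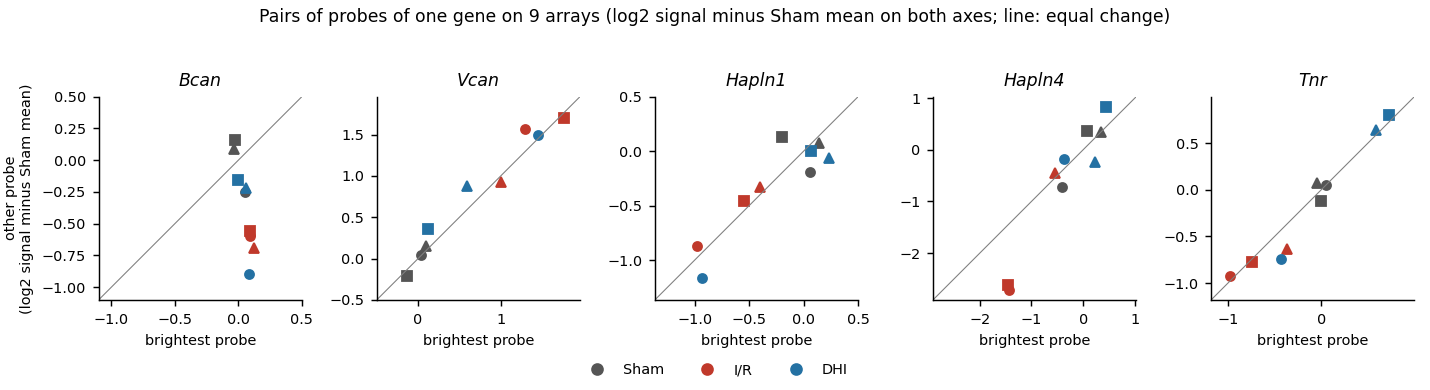
Log2 signal minus the Sham mean of the brightest probe (x axis) and the other tested probe (y axis) of 5 genes on each of 9 arrays, colored by group, with the replicate number as the shape and a line of equal change. The points of Vcan, Hapln1, and Tnr lie near the line, those of Hapln4 fall below it on I/R 1 and I/R 2, and those of Bcan run down the y axis with almost no spread along the x axis.

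In DHI versus I/R, the net genes Acan, Hapln4, and Tnr and the nodal link protein Hapln2 were 1.84- to 2.37-fold higher in DHI at the thresholds of the study. None of the 10 genes passed the adjusted p in limma, against 0.00421% of all probes (1 probe). At an unadjusted p under 0.05, 4 genes passed, against 25.4% of all probes, and after adjustment of the methods' t-test 0. At the thresholds of the study the count was 4 of 10 genes, all higher in DHI, against 21.9% of all probes in either direction and 11.5% in that direction. The methods' t-test at the same thresholds called Hapln4 alone, against 1.97% of all probes. No overlap between the DHI arrays and the I/R arrays was seen for 4 genes (40%), Bcan lower and Acan, Hapln2, and Hapln4 higher in DHI, against 9.54% of all probes. The median log2 fold change was 0.41 over the 10 genes and 0.10 over all probes.

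Acan read -6.51, -5.61, and -6.59 in DHI 1 to 3, all above the highest I/R value of -6.90. The log2 fold change was 1.09 (SE 0.36, adjusted p = 0.196, limma). Hapln4 read -2.39, -1.59, and -1.79, also all above I/R, with a log2 fold change of 1.25 (SE 0.34, adjusted p = 0.196, limma). Its other probe read -4.56, -3.56, and -4.63 in DHI, where I/R 3 was at -4.84, and its log2 fold change was 2.06 (adjusted p = 0.196, limma). On both Hapln4 probes every DHI array was thus above every I/R array.

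Tnr read 1.40, 2.56, and 2.42 in DHI, so that DHI 1 was below I/R 3 while the other two were above all Sham and I/R arrays. The log2 fold change was 0.99 (SE 0.31, adjusted p = 0.196, limma), and 1.01 on the other probe. Hapln2 read 2.84, 3.19, and 3.42 in DHI, all above I/R, with a log2 fold change of 0.88 (SE 0.37, adjusted p = 0.196, limma).

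The other members did not pass either threshold in this comparison. Vcan read -0.61, -1.94, and -1.47 in DHI, where DHI 1 lay within the I/R range and the other two between I/R and Sham, with a log2 fold change of -0.63 (SE 0.34, adjusted p = 0.239, limma). Ptprz1 read 1.23, 0.44, and 0.92, with DHI 2 below all Sham arrays, and its log2 fold change was -0.38 (adjusted p = 0.244, limma). Ncan read -2.21, -1.54, and -1.40 and Hapln1 -2.92, -1.92, and -1.76, with DHI 1 far below the other two in both genes. Their log2 fold changes were 0.39 (adjusted p = 0.255, limma) and 0.43 (adjusted p = 0.347, limma). Adamts4 read -3.89, -4.64, and -4.20 and the variant 1 probe of Bcan 5.10, 5.01, and 5.08, so that each gave small differences of -0.35 and -0.05. The variant 2 probe of Bcan read -0.28, 0.46, and 0.40, which was below all Sham and I/R arrays in DHI 1 and above all I/R arrays in the others.

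DHI 1 was nearer to the I/R mean than to the Sham mean for 7 of the 10 genes, DHI 2 for 0, and DHI 3 for 2. In Bcan and Hapln2, which are counted here, the Sham and I/R means hardly differed (log2 fold changes of 0.10 and -0.12), so that nearness says little. Without DHI 1, 7 genes passed the adjusted p in DHI versus I/R, against 44.7% of all probes. Tnr (1.36, adjusted p = 0.00342), Hapln4 (1.48, adjusted p = 0.0142), Acan (1.23, adjusted p = 0.0433), Hapln1 (0.79, adjusted p = 0.0216), and Ncan (0.64, adjusted p = 0.0165) were then higher in DHI and Vcan (-0.99, adjusted p = 0.0197) and Ptprz1 (-0.56, adjusted p = 0.0384) lower, as log2 fold changes and adjusted p from limma. The count at the thresholds of the study was then also 7 genes, against 45.2% of all probes, and it was 2 without DHI 2, which were Hapln4 and Tnr, against 3.95%. With no scaling between arrays it was 2 as well, Vcan and Ptprz1, both lower in DHI, against 31.3% of all probes, and that setting moved the median over all probes from 0.10 to -0.36 on the log2 scale.

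**Figure D4:**
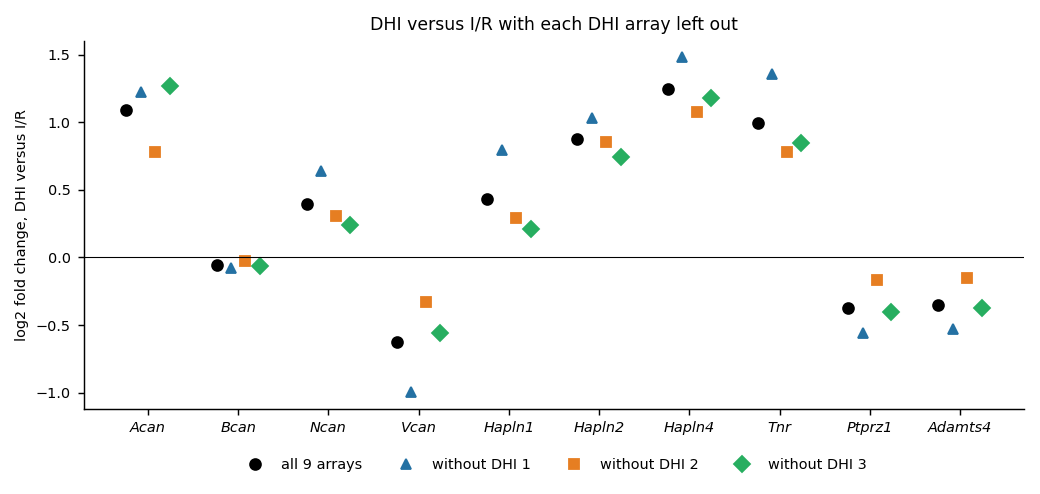
Log2 fold change of each of the 10 genes in DHI versus I/R (y axis) from limma with all 9 arrays and with DHI 1, DHI 2, or DHI 3 left out. Leaving out DHI 1 moved every gene away from 0 (Tnr from 0.99 to 1.36 and Vcan from -0.63 to -0.99, for example), and no gene changed its sign.

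In DHI versus Sham, none of the 10 genes passed the adjusted p or the thresholds of the study in limma, nor did any by the methods' t-test or at an unadjusted p under 0.05, against 0% of all probes by the adjusted p and 3.58% at the thresholds of the study. Of the 10 genes, 1 (Vcan) had groups without overlap, against 18.6% of all probes. By the methods' t-test 1.89% of all probes were called. The log2 fold change of Vcan was 0.72 with a 95% interval from -0.07 to 1.51 (adjusted p = 0.709, limma), and its second probe, at 0.91, passed the thresholds of the study. Hapln2 had the largest difference of the 10 genes by their brightest probes, 0.76 (95% interval from -0.09 to 1.60). In Acan the difference was -0.08 with an interval from -0.91 to 0.75, in Hapln4 0.10 with an interval from -0.68 to 0.87, and in Ncan -0.03 with an interval from -0.55 to 0.49. Without DHI 1, Tnr moved from 0.30 to 0.66 (adjusted p = 0.732, limma) and was the 1 gene past the thresholds of the study, against 3.5% of all probes. Acan and Hapln1 then turned from -0.08 to 0.05 and from -0.21 to 0.15. DHI versus Sham shares its DHI arrays with DHI versus I/R and its Sham arrays with I/R versus Sham.

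The genes that build and trim the chondroitin sulfate chains changed in both directions in I/R versus Sham. Of 11 genes of chain synthesis 2 rose and 4 fell, with a list median of -0.68 on the log2 scale against -0.10 over all probes. The chain polymerase Chsy1 rose (2.02, adjusted p = 0.0404, limma), while its relative Chsy3 (-1.86, adjusted p = 0.0406, limma) and the polymerizing factor Chpf (-0.94, adjusted p = 0.0419, limma) fell. Of 8 tested genes that sulfate or epimerise the chains 3 rose and 0 fell, with a median of 0.43. They were Dse (2.64), the epimerase that turns chondroitin into dermatan sulfate, the dermatan 4-O-sulfotransferase Chst14 (0.74), and the chondroitin 4-O-sulfotransferase Chst13 (1.38). The ninth, Chst3, was not bright enough to be tested.

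Among 10 tested genes of other proteoglycans and net proteins 4 rose and 1 fell. The small proteoglycans of connective tissue Bgn (3.37) and Dcn (3.20) and the injury-associated tenascin Tnc (2.64) rose the most. The member Tnr, a close relative of Tnc, had a log2 fold change of -0.70 that did not pass. Of 9 tested proteases and inhibitors that act on proteoglycans or their surroundings 5 rose and 1 fell, with a median of 1.04. The gelatinase Mmp2 (4.34), the protease inhibitor Timp1 (4.14), and the aggrecanase relative Adamts9 (2.52) led, against 0.77 for the member Adamts4. Of 7 receptors and partners for chondroitin sulfate 0 rose and 2 fell, the Nogo receptor Rtn4r (-2.81) and the adhesion molecule Cntn1 (-1.60), with a median of -1.05. When DHI was compared with I/R or with Sham, 0 genes of these lists passed the adjusted p in limma. At the thresholds of the study, the proteases and inhibitors had 5 of 9 genes lower in DHI than in I/R (median -1.02) and the receptors 3 of 7 higher (median 0.97), against 21.9% of all probes in either direction. The lists of chain synthesis, of sulfation and epimerisation, and of other proteoglycans each had 1 gene higher and 2 lower.

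Marker genes of the cells that the hemisphere holds were read on the same arrays. In I/R versus Sham, 5 of 8 markers of parvalbumin and other interneurons fell, among them Pvalb (-3.25) and the potassium channels of fast spiking Kcnc1 (-3.05) and Kcnc2 (-2.85). Their summed signal, in multiples of the 75th percentile of the array, was 66.5 to 81.2 in Sham, 7.49 to 27.5 in I/R, and 16.1 to 69.1 in DHI. All 8 neuron markers fell, led by Nefm (-3.37) and Nefl (-3.04) and including Snap25 (8.02-fold lower), with sums of 59.7 to 79.3 in Sham, 5.99 to 33.3 in I/R, and 22.0 to 73.5 in DHI. The median log2 fold changes of both lists were -2.32 and -2.84, against -1.17 for Acan and -1.15 for Hapln4. The part of these markers in the fall of Acan and Hapln4 was not tested.

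Most markers of fibroblasts, microglia, and reactive astrocytes went the other way. Of 7 fibroblast and pericyte markers 6 rose, led by Col3a1 (4.87), Lum (4.85), and Col1a1 (4.78), with sums of 5.22 to 9.18 in Sham, 70.8 to 113.5 in I/R, and 5.56 to 98.5 in DHI. Of 8 microglia and macrophage markers 7 rose, led by Cd68 (6.69), Ptprc (4.68), and Tyrobp (4.25), with sums of 12.2 to 14.0, 86.4 to 243.6, and 16.8 to 130.7. Of 7 markers of reactive astrocytes 6 rose, among them Timp1, Cd44 (3.94), and Gfap (3.63), with sums of 1.89 to 2.49, 23.6 to 33.8, and 2.36 to 29.2. Of 6 markers of oligodendrocyte precursors, cells that make Vcan and Ptprz1, 2 rose, namely Pdgfra (1.84) and Cspg4 (1.19), which fibroblasts and pericytes also make. The other 4 lay between -0.27 (Gpr17) and 0.23 (Sox10) and did not pass, and the list had a median of 0.20 with sums of 9.76 to 13.1, 13.4 to 23.1, and 14.6 to 19.7. The part of these cells in the rise of Vcan was not tested.

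Markers of other cells changed less or unevenly. Of 7 astrocyte markers 2 rose, Aqp4 (1.47) and Gja1 (0.79), and at the thresholds of the study 3 were higher and 2 lower, the glutamate transporter Slc1a2 (-1.12) and the glycolytic enzyme Aldoc (-0.70), which are named after their values were seen. Of 6 endothelial markers 1 rose, Tek (2.14-fold higher), and of 8 oligodendrocyte markers 0 passed in either direction. The oligodendrocyte sums were 145.8 to 172.3 in Sham, 112.8 to 165.9 in I/R, and 158.7 to 202.7 in DHI. The range in DHI overlapped both others, and in Hapln2 the DHI arrays overlapped the Sham arrays. Of 4 choroid plexus markers 2 rose, Folr1 (4.51) and Aqp1 (3.68), with sums of 0.51 to 1.05 in Sham, 1.63 to 94.4 in I/R, and 7.55 to 137.9 in DHI. Of 3 red blood cell genes 0 passed, with sums of 3.75 to 29.7, 2.27 to 3.34, and 7.33 to 38.9. The part of these markers in the values of the 10 genes was not tested.

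On DHI 1 the neuron, interneuron, and fibroblast and pericyte markers lay nearer to the I/R arrays than on DHI 2 and DHI 3. Of the 10 genes, 7 were nearer to the I/R mean on DHI 1, and Acan, Hapln2, and Hapln4 were nearer to the Sham mean. The median deviation from the Sham mean on DHI 1, DHI 2, and DHI 3 was -1.97, 0.26, and -0.65 in the neuron list, -2.21, -0.14, and -0.29 in the interneuron list, and 3.52, -0.35, and 0.08 in the fibroblast and pericyte list. On DHI 2 and DHI 3 these medians thus lay between -0.65 and 0.26. In the 3 I/R arrays the neuron medians were -3.87, -3.54, and -1.21, with I/R 3 nearest to Sham. Among the 10 genes, I/R 3 was nearest to the Sham mean in Ncan, Vcan, Hapln1, Hapln4, Tnr, and Adamts4. It was not nearest in Acan, Bcan, Hapln2, or Ptprz1, and a link to the neuron markers was not tested.

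**Figure D5:**
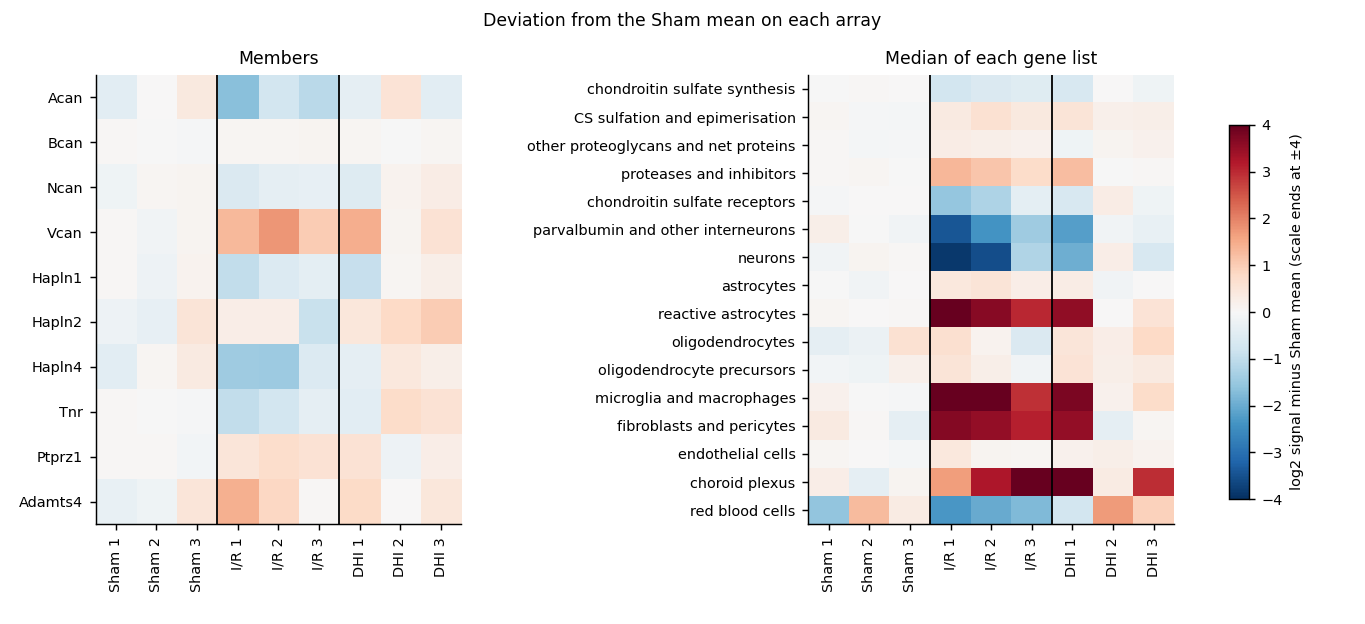
Log2 signal minus the Sham mean (color, with the scale ending at ±4) on each of the 9 arrays for the 10 genes (left) and as the median of each gene list (right; CS stands for chondroitin sulfate). Acan, Hapln4, and the neuron and interneuron lists are below the Sham mean on the 3 I/R arrays and Vcan and the reactive astrocyte, microglia, and fibroblast lists above it, and the column of DHI 1 resembles the I/R columns more than those of DHI 2 and DHI 3 do.

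The genes lie in pairs in the rat genome. In the RefSeq table of the GRCr8 assembly, Hapln1 neighbors Vcan, Hapln2 neighbors Bcan, Hapln4 neighbors Ncan, and Hapln3 neighbors Acan, with 0 genes listed between the members of each pair. In I/R versus Sham, Vcan rose while its neighbor Hapln1 had a log2 fold change of -0.64, and their brightest probes lie 74844 bases apart in rn4. Hapln4 fell, where its neighbor Ncan, 9756 bases away, had -0.42, and the I/R arrays were below the Sham arrays in both genes (r = 0.84 over the 9 arrays, which share the group differences). Bcan had 0.10 and Hapln2, 36819 bases away, -0.12. Hapln3, the link protein next to Acan and not a member of the 10, had -0.42 (adjusted p = 0.0836, limma).

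For the genes named below, the gene with the most similar signal over the 9 arrays was sought among 14106 genes by Pearson's r, as a description with no test. All arrays share the group differences, so that high values are common. Vcan was most like Ccna2 (r = 0.99), a cyclin of dividing cells, and Hapln2 most like Opalin (r = 0.99), a membrane protein of myelinating oligodendrocytes. The others were Eps8l2 for Acan (0.95), Slc26a3 for Bcan (0.97), Rnf144a for Ncan (0.98), Zfp483 for Hapln1 (0.98), Eid1 for Hapln4 (0.98), Wdr70 for Tnr (0.99), and Akip1 for Ptprz1 (0.98). Among the 10 genes themselves, 15 of the 45 pairs had r above 0.5 and 20 below -0.5. The values ran from -0.83, between Acan and Bcan, to 0.92, between Ncan and Hapln1 and between Vcan and Ptprz1.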

How the data were processed

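Gene expression was measured on 9 one-color arrays (Agilent SurePrint G3 Rat), 3 per group, with groups and replicate numbers taken from the sample labels. For each array the authors deposited spot intensities from Agilent Feature Extraction 10.7.1.1, per the labels, corrected for background but without scaling from array to array. A series table of log2 values by the authors was used as an alternative. The normalization behind that table is not given in the sources used here.

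Here the log2 processed signal minus that of the 75th percentile of the array was used. Control spots and the 392 to 725 outlier spots per array were left out, 0 spots were saturated, and repeated spots of the same probe were averaged. A probe had to be well above background on every array of 1 group or more, and the 23747 probes left were tested in R 4.3.3 with limma 3.58.1 (lmFit and eBayes) in 1 model over 9 arrays, with Benjamini-Hochberg adjustment over all of them, and tested on simulated data. "Rose" and "fell" stand for an adjusted p under 0.05. The methods' t-test was an alternative. The number of unused value columns was 0.

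The 10 genes and the gene lists were chosen with earlier results of these data known. Named beside them are, per list, up to 3 genes with the largest change past the adjusted p in I/R versus Sham, and for each gene the 1 most similar gene, except for 1 result that is not reported here. Hapln3 was named after its values were seen, as the neighbor of Acan. Symbols of all 10 genes matched RefSeq by accession. Of the listed genes, Adamts8 and Adamts20 were not found by name, and Chst3, Has3, Mmp3, and Kl were not tested.

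Alternatives were quantile normalization, no scaling, normexp (offset 50), the series table, 2 filters, a fit of 2 groups, array weights, a replicate block, the t-test, gene means, outliers kept, and leaving out each array.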

Additional observations from a re-analysis of the deposited data

How the results depend on the processing

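Over the 10 genes and 3 comparisons, 630 values were recomputed under other settings, of which 544 kept their direction and their side of the adjusted threshold, 27 lost a call, 32 gained one, and 27 turned their sign. The count of genes past the adjusted p in I/R versus Sham was 3 of 10, against 32.4% of all probes. With no scaling between arrays it was 0 (0.00421% of all probes), and with no filter on dim probes 1 (16.6%). It was 6 in a fit of only both groups (46.4%) and 8 with array weights (76.8%). With normexp background correction it was 2 (30.1%), and with the methods' t-test also 2 (32.5%). When 1 array was left out it was 0 to 7 (0% to 51.1%). In DHI versus I/R it was 0, against 7 with array weights (72.4% of all probes). When 1 array was left out it was 0 to 7, with 7 without DHI 1 (44.7% of all probes). In DHI versus Sham it was 0, against 3 with array weights (14.6% of all probes). At the thresholds of the study, the count in DHI versus I/R was 4, against 2 with no scaling (31.3% of all probes). It was 1 with the methods' t-test (1.97%) and 6 with array weights (50.1%). When 1 array was left out it was 2 to 7 (3.95% to 45.2%). In DHI versus Sham that count was 0. It was 1 in a fit of only both groups (3.82% of all probes) and 2 with array weights (14.7%). With the mean of all probes of a gene it was 1 (3.5% of all genes tested). When 1 array was left out it was 0 to 1 (1.45% to 10.6% of all probes). Over all probes, the adjusted count in I/R versus Sham moved from 7696 to 1 with no scaling, 5042 with no filter, 18227 with array weights, and 0 to 12140 when 1 array was left out, and that in DHI versus I/R from 1 to 17190 with array weights and 10621 without DHI 1. The share of higher calls at the thresholds of the study in DHI versus I/R moved from 52.2% to 4.8% with no scaling. The cause of these moves was not tested. The array weights were 0.90, 2.68, and 2.68 for Sham 1 to 3 and 0.60, 5.32, and 0.19 for I/R 1 to 3. For DHI 1 to 3 they were 0.09, 0.61, and 4.50, so that I/R 2 and DHI 3 counted most in their groups.

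None of the 27 values that turned their sign was past the adjusted p. With no scaling they were 0.0777 for Hapln2 in I/R versus Sham, -0.0269 for Hapln1 and -0.0663 for Ncan in DHI versus I/R, and -0.217 for Bcan, -0.165 for Hapln4, and -0.0536 for Ptprz1 in DHI versus Sham. For Bcan they were -0.00047 (I/R versus Sham) and -0.0072 (DHI against Sham) with quantile normalization, -0.011 in DHI versus Sham with the series table, and, with the mean of its probes, -0.259 for I/R against Sham, 0.0685 for DHI against I/R, and -0.190 for DHI against Sham. With array weights they were 0.17 for Hapln2 in I/R versus Sham and 0.21 for Hapln1 and 0.20 for Ncan in DHI versus Sham, and with normexp 0.20 for Acan in DHI versus Sham. When 1 array was left out, the sign turned under at least 1 choice in DHI versus Sham for Acan (range -0.395 to 0.118), Hapln1 (-0.434 to 0.15), Hapln4 (-0.107 to 0.333), and Ncan (-0.187 to 0.215), and in I/R versus Sham for Hapln2 (-0.314 to 0.263).

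The replicate numbers were not taken as pairs, since the correlations of the deviations of same-numbered samples ran from -0.34 to 0.48 and were negative for replicate 2 in both comparisons with I/R. With a replicate block, 3 genes passed the adjusted p in I/R versus Sham (the same 3), against 36.4% of all probes. At the thresholds of the study 6 genes passed there, against 43.8% of all probes. In DHI versus I/R 3 passed these thresholds, against 26.6%. Slide as a block was not run, because slide 2 holds DHI alone and the fit has no such term.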
